A study of Mus musculus with 40 samples.

Results

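The genes described here encode 6 receptors of bone marrow-derived macrophages (BMDMs): *Siglece*, *Siglec1*, *Siglecg*, *Cd33* and *Cd22* of the Siglec family, and the tetraspanin *Cd37*. They were taken by symbol, 6 of the 27179 genes in a table of 40 RNA-seq libraries. They were chosen by the rlog values themselves, because *Siglece* and *Cd37*, both on chromosome 7, differed between WT and *Cpeb4*-/- cells at every time point. The genotype differences of *Siglece* and *Cd37* are therefore given as descriptions with no test. Tests are given for the response of all 6 genes to lipopolysaccharide (LPS), and for the genotype differences of the other 4.

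The cells came from 4 WT and 4 *Cpeb4*-/- adult male mice of a mixed C57BL/6J and 129 background, the latter lacking *Cpeb4* in the whole animal. CPEB4 is a cytoplasmic protein that binds mRNAs and acts on their poly(A) tails and stability. Bone marrow was grown for 7 days in medium conditioned by L cells, a source of the growth factor M-CSF, and was left untreated (0 hr) or given 10 ng/ml LPS for 1, 3, 6 or 9 hr. Every mouse gave a library at each of the 5 times, and 2 mice of each genotype were in each of 2 batches. No cage held mice of both genotypes, so cage and genotype cannot be told apart, and which strain's alleles each mouse carried at these genes was not analysed here. Values are the authors' rlog values, a log2 scale that is corrected for library size and shrunken toward a gene's mean where reads are few. They are not divided by gene length, so levels are compared between samples and never between genes. The table holds no read counts, so the depth behind each value is unknown. In RNA from a whole culture, fewer cells of a type and less RNA per cell cannot be told apart.

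All 10 macrophage markers, among them *Adgre1* (F4/80), *Csf1r*, *Itgam* and *Lyz2*, lay above the filter on low values (a rlog of 2.32, log2 of 5) in all 40 libraries. Of 10 B cell markers, 9 lay below it in all 40, with *Pax5* between −1.83 and −1.38; *Cd79b* was the exception at 4.56 to 6.55. *Cpeb4* itself, summed over the whole gene, was below the WT libraries in every *Cpeb4*-/- library at 6 hr only (8.74 to 9.66 against 10.09 to 10.67). At the other times the ranges overlapped, and the genotypes are taken as labelled.

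Siglecs are lectins of the cell surface that bind sialic acids, the sugars that cap many glycans on a body's own cells. Most carry tyrosine-based inhibitory motifs (ITIMs) in their cytoplasmic tail, which recruit the phosphatases encoded by *Ptpn6* and *Ptpn11* and dampen signals from other receptors. *Siglece* encodes the inhibitory Siglec of mouse myeloid cells, and it is known for restraining responses to LPS. Tetraspanins such as CD37 organise other membrane proteins into clusters.

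*Siglece*, *Cd33*, *Siglecg* and *Cd37* lie within a short stretch of chromosome 7. In the GRCm38 (mm10) annotation *Siglece* spans chr7:43648882-43672044, *Cd33* chr7:43527399-43537424 and *Siglecg* chr7:43408192-43418349, so that 111.5 kb separate *Cd33* and 230.5 kb separate *Siglecg* from *Siglece*. *Cd37*, at chr7:45233632-45239340, lies 1.56 Mb from *Siglece*. *Cd22* is farther off on the same chromosome, at chr7:30865404-30880342, and *Siglec1* lies on chromosome 2, at chr2:131067801-131086778. RefSeq start-site windows (GRCm38.p6, 250 bases before to 50 after a start) were held for 5 of the 6 genes. The 250 bases before the start are shown for the 2 genes with lower levels in *Cpeb4*-/- cells at every time, 5′ to 3′ in the direction of transcription. *Siglece* and *Cd37* are both read from the minus strand, and these bases are at chr7:43660162-43660411 and chr7:45238840-45239089, each inside the annotated span of its gene. Capitals mark the letters GAGGAAG or, for the other strand, CTTCCTC, the core bound by PU.1, the transcription factor of macrophages encoded by *Spi1*.
Siglece: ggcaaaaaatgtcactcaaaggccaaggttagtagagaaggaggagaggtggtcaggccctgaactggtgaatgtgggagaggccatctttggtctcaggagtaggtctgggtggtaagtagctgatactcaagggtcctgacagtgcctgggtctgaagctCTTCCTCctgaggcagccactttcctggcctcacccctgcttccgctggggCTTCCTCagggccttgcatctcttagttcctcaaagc
Cd37: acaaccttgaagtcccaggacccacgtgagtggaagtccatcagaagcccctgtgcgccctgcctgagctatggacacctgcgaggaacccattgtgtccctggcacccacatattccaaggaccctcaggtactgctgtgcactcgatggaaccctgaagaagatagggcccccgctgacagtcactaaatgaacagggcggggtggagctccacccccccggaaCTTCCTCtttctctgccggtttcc
The *Siglece* window held the letters at bases 163 and 214, counted from the 5′ end, and the *Cd37* window at base 227. The window of *Cd33* and 1 of 2 windows of *Siglecg* held 1 match each, and that of *Cd22* held 0. Of all 32851 windows, 13.63% held them on either strand. The letters TGANTCA (AP-1, 7.81% of windows) and TGACGTCA (CRE, 1.79%) were also searched on both strands and were in no window of the 5 genes. The windows are those of the reference strain, and a match of letters is no measure of binding.

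*Siglece* had the largest genotype difference of the 6 genes, and every *Cpeb4*-/- library was below every WT library at each time. Of all genes tested, 5.04, 8.11, 6.58, 12 and 8.51% were placed in this way at 0, 1, 3, 6 and 9 hr. In untreated WT cells it was at 7.67, 7.33, 8.03 and 7.86 in mice 25, 69, 87 and 88. In untreated *Cpeb4*-/- cells it was at 5.55, 5.31, 5.52 and 5.40 in mice 2, 3, 55 and 62. The lowest WT value was thus 1.78 above the highest *Cpeb4*-/- value before any LPS was given. At 1 hr the WT mice were at 7.81, 7.45, 8.18 and 8.02 and the *Cpeb4*-/- mice at 5.51, 5.49, 5.72 and 5.58. At 3 hr they were at 8.15, 7.94, 8.40 and 8.26 against 5.98, 6.04, 6.27 and 6.11. The distance between the groups changed little over these first hours, and both groups had begun to rise. At 6 hr the WT mice reached 9.59, 9.13, 9.86 and 9.44, and the *Cpeb4*-/- mice 7.03, 6.86, 6.95 and 7.12. At 9 hr the WT mice were higher still, at 10.59, 10.02, 10.80 and 10.51, while the *Cpeb4*-/- mice were at 6.91, 6.83, 6.92 and 6.81. Even the highest *Cpeb4*-/- value of the whole course, 7.12 at 6 hr, was below the lowest WT value of the course, 7.33 in an untreated culture.

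**Figure D1:**
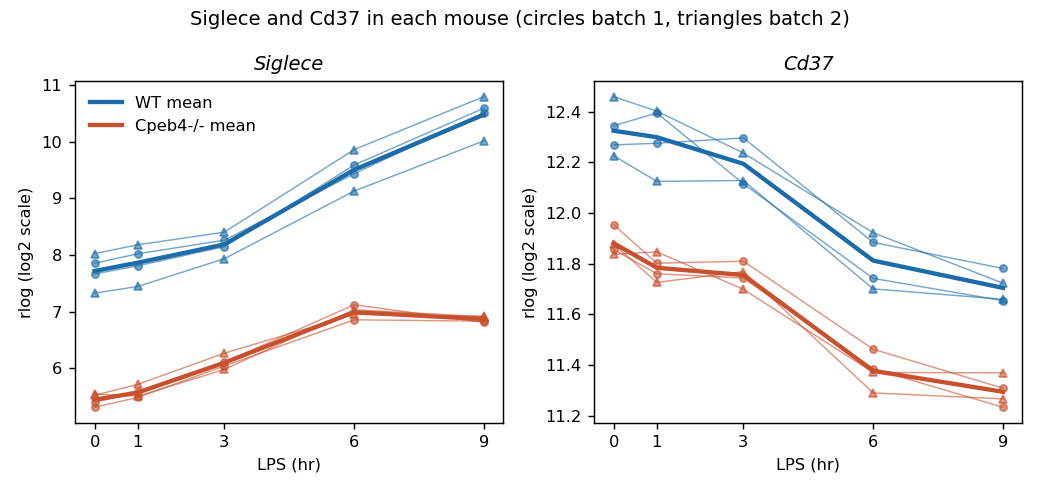
*Siglece* (left) and *Cd37* (right) in each of 8 mice, as rlog values (log2 scale, vertical axis, not from 0) against hours of LPS (horizontal axis); thin lines are mice, circles batch 1, triangles batch 2, thick lines group means, blue WT and orange *Cpeb4*-/-. *Siglece* climbed to a mean of 10.48 at 9 hr in WT and stopped near 6.99 in *Cpeb4*-/- cells, and the 2 groups of *Cd37* fell side by side.

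The mean difference in *Siglece*, *Cpeb4*-/- minus WT, was −2.27 ± 0.13, −2.29 ± 0.15, −2.09 ± 0.11, −2.51 ± 0.12 and −3.61 ± 0.14 (SE, n = 4 mice per genotype) in the order of the 5 times. On the rlog scale these correspond to levels 4.83, 4.90, 4.25, 5.71 and 12.2 times higher in WT. Within batch 1 the 5 differences ran from −3.73 to −2.13 and within batch 2 from −3.49 to −2.05, so the 2 batches gave differences of like size. Ranked by the size of the mean difference over the 5 times, −2.56, *Siglece* had rank 4 of the 12676 genes tested at every time. The order of the 4 WT mice hardly moved: mouse 69 was lowest and mouse 87 highest at all 5 times. Mice 87 and 88, which shared a cage, averaged 9.05 and 8.82 over the course, and the other 2 WT mice 8.76 and 8.37. Among the *Cpeb4*-/- mice the averages spanned only 6.11 to 6.28, and no mouse was highest or lowest throughout.

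The response of *Siglece* to LPS was not used in the choice and was tested with limma. In WT cells it rose by 0.47 ± 0.15 at 3 hr (adjusted p = 0.00556), 1.79 at 6 hr (adjusted p = 2.48e-13) and 2.76 at 9 hr (adjusted p = 1.73e-18), the last a 6.78-fold rise. All 4 WT mice rose at each of these times, by 2.66 to 2.93 at 9 hr. In *Cpeb4*-/- cells it rose by 0.65 at 3 hr (adjusted p = 2.05e-04), 1.55 at 6 hr (adjusted p = 1.14e-11) and 1.42 at 9 hr (adjusted p = 1.27e-10), again in 4 of 4 mice. At 1 hr the changes were 0.15 and 0.13, and neither passed the test (adjusted p = 0.479 and 0.532). The genotypes went apart between 6 and 9 hr. *Siglece* went up by 0.98 ± 0.08 (SD, n = 4) in that interval in WT mice, 0.89 to 1.08 in single mice, and down by a mean of −0.12 ± 0.13 in *Cpeb4*-/- mice, −0.31 to −0.02 in single mice. The difference between the responses at 9 hr was −1.34 ± 0.21 (SE), and it is given with no test because it holds the contrast used in the choice. Ordered by level, the groups ran WT 9 hr, WT 6 hr, WT 3 hr, WT 1 hr, WT 0 hr, then *Cpeb4*-/- 6, 9, 3, 1 and 0 hr. Neighbours in this order overlapped for WT at 3, 1 and 0 hr, for *Cpeb4*-/- at 6 and 9 hr and for *Cpeb4*-/- at 1 and 0 hr, and the other steps were clear of each other's range.

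*Cd37* was lower in *Cpeb4*-/- cells by a small and steady amount, and it fell with LPS in both genotypes. Before LPS it was at 12.27, 12.23, 12.46 and 12.35 in WT mice 25, 69, 87 and 88, and at 11.84, 11.86, 11.88 and 11.95 in *Cpeb4*-/- mice 2, 3, 55 and 62. At 6 hr the WT mice were at 11.88, 11.70, 11.92 and 11.74 and the *Cpeb4*-/- mice at 11.37, 11.38, 11.29 and 11.46. At 9 hr they were at 11.78, 11.66, 11.72 and 11.65 against 11.37, 11.23, 11.27 and 11.31. The 2 groups were apart at each of the 5 times, by a gap of 0.24 to 0.31. The lines of the genotypes ran parallel, so that *Cpeb4*-/- cells at 0 hr (mean 11.88) stood where WT cells stood at 6 hr (mean 11.81), with overlapping ranges.

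The differences in *Cd37* were −0.44 ± 0.06, −0.52 ± 0.07, −0.44 ± 0.05, −0.44 ± 0.06 and −0.41 ± 0.05 (SE, n = 4 mice per genotype) at 0, 1, 3, 6 and 9 hr. WT levels were 1.33 to 1.43 times higher on this scale, against 4.25 to 12.2 times for *Siglece*. Within batches the differences ran from −0.55 to −0.39 (batch 1) and from −0.49 to −0.37 (batch 2). By the size of the mean difference, −0.45, *Cd37* had rank 237 of 12676 genes. After LPS, *Cd37* fell by 0.51 ± 0.06 at 6 hr and 0.62 at 9 hr in WT cells (limma adjusted p = 3.91e-10 and 5.00e-12), and it decreased by 0.50 and 0.59 in *Cpeb4*-/- cells (adjusted p = 6.17e-10 and 2.23e-11), in 4 of 4 mice each time. After quantile normalization the changes were larger, −1.11 and −1.05 in WT and −0.96 and −0.93 in *Cpeb4*-/- cells. Its changes at 3 hr were −0.13 in both genotypes with adjusted p of 0.0417 and 0.0494. The WT call at 3 hr was lost when mouse 3, 55, 62, 87 or 88 was left out (adjusted p = 0.0507 to 0.196), and the *Cpeb4*-/- call when mouse 2, 3, 25, 55, 62 or 88 was left out (0.0511 to 0.125). With no filter both calls were lost (0.0773 and 0.0908). The *Cpeb4*-/- call was also lost without the trend (0.0571) and with robust eBayes (0.0504). After quantile normalization the changes were −0.28 and −0.62 at 1 and 3 hr in WT and −0.32 and −0.51 in *Cpeb4*-/- cells, each past the test. The responses of the genotypes differed by −0.07 ± 0.08 at 1 hr and by 0.00 to 0.03 at the later times, each with an SE of 0.08 and no test.

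The macrophage markers taken as a sum were lower in *Cpeb4*-/- cells, as was *Cd37*, but not every marker was. The summed level of the 10 markers, log2 of the sum of 2 to the rlog and most of it *Lyz2*, was 18.72 to 18.96 in *Cpeb4*-/- and 19.04 to 19.34 in WT libraries at 0 hr, and 19.01 to 19.21 against 19.28 to 19.35 at 9 hr. The 2 groups were apart at all 5 times. Over the 5 times the difference ran from −0.59 to −0.38 in *Lyz2* and from −0.38 to −0.22 in *Cd14*, but from −0.09 to 0.10 in *Adgre1* and from 0.11 to 0.30 in *Itgam*. The part of these markers in the differences of *Siglece* and *Cd37* was not tested.

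Calling a gene at a limma adjusted p under 0.05 in 1 direction at all 5 times, the pattern behind the choice, picked 30 of 12676 genes, 0.237%, of which 17 were lower and 13 higher in *Cpeb4*-/- cells. On chromosome 7 there were 4 of the 969 genes tested at all 5 times: *Pop4* (chr7:38262812-38271393, −0.72 to −0.39 over the times), *Siglece*, *Cd37* and *Folr2* (chr7:101839988-101857190, −0.41 to −0.31). The highest of the 5 adjusted p of *Cd37* was 0.00897 and that of *Siglece* 1.38e-04. Among genes of the same chromosome just outside, called at 4 times, was *Sult1a1*, with −0.50 and an adjusted p of 0.0587 at 9 hr. Others were *Apoe* (−0.43, 0.0753 at 9 hr), *Slco3a1* (−0.21, 0.0782 at 0 hr) and *Hpn* (−0.23, 0.165 at 3 hr). These values describe the choice and are no test of it.

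No gene tested at all 5 times around *Siglece* had a mean difference near its size. Within 5 Mb of its start, 100 other genes were tested at all 5 times, and 97 of them are not among the 6. The mean differences of the 97 ran from −0.52 to 0.44, against −2.56 for *Siglece*, which was chosen for its difference. Of the 97, 77 were called at no time and 0 at 3 times or more. The shares of all genes called so often are not given here, so these counts cannot be read as many or few. The annotated spans of 2 tested genes overlap that of *Siglece* at its ends. *Ctu1*, at chr7:43671971-43678301, shares 74 bases with it, and its mean difference was −0.07, called at no time. *Ceacam18*, at chr7:43634617-43649295, shares 414 bases and was tested at 2 times only, with differences of −0.32 at 6 hr (adjusted p = 0.313) and −0.84 at 9 hr (adjusted p = 0.0120). Whether reads of these shared bases were counted by strand is not given in the sources used here. The nearest genes tested at all 5 times without overlap were *Zfp719* (55.2 kb away, a mean of 0.09 and called at no time) and, on the other side, *1700028J19Rik* (557.9 kb, 0.01 and called at no time). *Zfp658*, a zinc finger gene 72.7 kb away, was higher in *Cpeb4*-/- cells, by 0.24 to 0.77 and called at 2 of the 5 times. Beside *Cd37*, *Tead2*, whose span ends 0.2 kb from it, had differences of −0.46 to −0.08 and was called at no time. *Trpm4*, 63.8 kb off on the other side, had differences of 0.06 to 0.21 and was also called at no time. These flanking genes were picked for their position after the values had been seen.

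**Figure D2:**
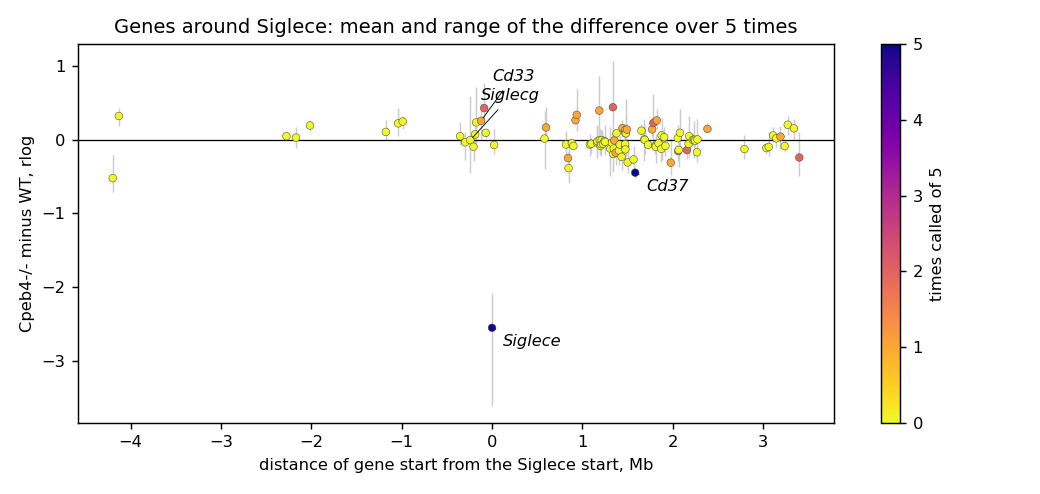
Difference between genotypes (*Cpeb4*-/- minus WT, rlog, vertical axis) of genes tested at all 5 times against the distance of their start from that of *Siglece* on chromosome 7 (Mb, horizontal axis). Dots are means over the 5 times, grey lines the range over times, and colours the number of times called with limma. *Siglece* at −2.56 and *Cd37* at −0.45, chosen for differing at every time, were called 5 times. No other gene shown was called more than 2 times.

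Windows of 1 Mb around each of the 6 genes held 304 other genes, of which 171 to 178 were tested at a given time. Of those, 6 of 174 were called by genotype at 0 hr (3.448%, against 1.31% of all genes), 7 of 178 at 1 hr (3.933% against 1.91%), 6 of 176 at 3 hr (3.409% against 3.68%), 21 of 173 at 6 hr (12.139% against 16.3%) and 15 of 171 at 9 hr (8.772% against 7.91%). In the 1 Mb around *Siglece* the counts were 1 of 21, 0 of 23, 1 of 22, 3 of 21 and 3 of 21. With limma 0 of 165 neighbours were called at all 5 times, while 7 had an unadjusted p under 0.05 in 1 direction at all 5. The share of all genes with such unadjusted p is not given here, so the 7 cannot be read as many or few. Among the 7, named after their values were seen, were *Aplp1*, *Fxyd5* and *Hpn* near *Cd22*, *Zfp658* near *Siglece*, and *Emc10* and *Pih1d1* near *Cd37*. *Hpn* was called at 4 times, with a mean difference of −0.47. A fit of all 40 libraries together called 2 neighbours at all 5 times, *Fxyd5* among them, with or without the mouse as a random effect, and leaving out mouse 88 called 1.

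Across the 40 libraries the gene most like *Siglece* was *Slc13a3*, which encodes a sodium-coupled carrier of dicarboxylates and lies on chromosome 2. Its Pearson r with *Siglece* was 0.96, and it was 0.86 within the 20 WT and 0.95 within the 20 *Cpeb4*-/- libraries. *Slc13a3* was also lower in *Cpeb4*-/- cells, by a mean difference of −2.77. Next came *Nudcd3* (r = 0.89), *Itm2c* (0.87), *Insig2* (0.86) and *Limd2* (0.86), whose mean differences were between −0.33 and −0.15. For *Cd37* the highest were *Fcrls* (0.96), a scavenger receptor gene of macrophages, *Fxyd5* (0.93), *Rnf187* (0.93), *Map1lc3a* (0.92) and *Ang* (0.92). *Fcrls* had a mean difference of −0.62, and *Fxyd5* lies on chromosome 7, within 1 Mb of *Cd22*. These are descriptions over 11021 genes, and the 40 points share the time course, the genotypes and 8 mice.

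*Siglec1* encodes sialoadhesin, a long Siglec that lacks an inhibitory motif and is known as an interferon-induced adhesion receptor of macrophages. Its response to LPS was late and large in both genotypes. In WT mice 25, 69, 87 and 88 it was at 11.73, 11.64, 11.39 and 11.43 untreated, and at 12.92, 13.11, 12.88 and 12.72 at 6 hr. In *Cpeb4*-/- mice 2, 3, 55 and 62 it was at 11.37, 11.44, 11.15 and 11.46 untreated, and at 12.51, 12.44, 12.68 and 12.39 at 6 hr. All 8 mice had thus risen by 6 hr, with every *Cpeb4*-/- mouse below every WT mouse by a gap of 0.04. At 9 hr the WT mice were at 12.94, 12.95, 12.97 and 12.99 and the *Cpeb4*-/- mice at 12.58, 13.23, 13.03 and 13.21, and the groups overlapped. The rise in WT was 1.36 ± 0.13 (SE) at 6 hr and 1.41 at 9 hr (limma adjusted p = 4.36e-12 and 2.23e-12), and in *Cpeb4*-/- 1.15 and 1.66 (adjusted p = 2.92e-10 and 3.61e-14). After quantile normalization both rises at 6 hr were smaller, 0.75 (WT) and 0.68 (*Cpeb4*-/-), and passed the test. No change passed the test at 1 or 3 hr (adjusted p = 0.0810 to 0.830). With the mouse as a block the change of −0.28 at 1 hr in WT passed (adjusted p = 0.0452), and after quantile normalization so did −0.47 at 1 hr and −0.41 at 3 hr in WT and −0.42 at 3 hr in *Cpeb4*-/- cells.

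The genotype difference in *Siglec1* passed the test at 6 hr only, −0.40 ± 0.08 (limma adjusted p = 0.00511), where 16.3% of all genes tested were called, 835 higher and 1294 lower in *Cpeb4*-/- cells (1025 and 986 after quantile normalization). With no filter on low values it did not pass (adjusted p = 0.0930). At 0, 1, 3 and 9 hr it was −0.19, 0.13, −0.26 and 0.05, with adjusted p from 0.112 to 0.819. At 6 hr both batches gave about the same value, −0.41 and −0.40. At 9 hr batch 1 gave 0.25 and batch 2 −0.15, and without mouse 2, the lowest *Cpeb4*-/- library then, the difference was 0.19 (adjusted p = 0.0150). An exact permutation test of 4 against 4 libraries cannot go below a two-sided p of 0.0286, which *Siglec1* had at 3 and 6 hr, and over the 20 such tests of the 4 genes the lowest adjusted value was 0.114.

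In humans *Cd33* encodes an inhibitory Siglec of myeloid cells, and its mouse counterpart has a different tail. Mouse *Cd33* rose with LPS and was higher in *Cpeb4*-/- cells at 6 hr. At 6 hr it was at 7.62, 7.94, 7.75 and 8.22 in WT mice 25, 69, 87 and 88, and at 8.21, 8.53, 8.40 and 8.15 in *Cpeb4*-/- mice 2, 3, 55 and 62. At 9 hr the values were 8.07, 8.09, 8.11 and 8.55 against 8.31, 9.24, 8.68 and 8.59. WT mouse 88 was the highest of its group at all 5 times, and at 6 and 9 hr it alone of the WT mice reached into the *Cpeb4*-/- range. The difference of 0.44 ± 0.12 at 6 hr passed the test (limma adjusted p = 0.0271), and that of 0.50 ± 0.18 at 9 hr did not (0.109). The 6 hr call was lost in the fit of all 40 libraries (0.135, and 0.107 with the mouse as a random effect), without the trend (0.0742), with no filter (0.216), and without mouse 3 (0.0774), 25 (0.0734), 55 (0.0554), 69 (0.0505) or 87 (0.0701). Without mouse 2 the 9 hr difference passed at 0.63 (adjusted p = 0.0111), without mouse 3 it was 0.32 (0.212), and without mouse 88 that at 3 hr did, at 0.36 (0.0303). At 0, 1 and 3 hr the differences were 0.01, 0.26 and 0.07, with adjusted p from 0.260 to 0.981. The exact permutation test gave 0.0857 at 6 hr and 0.0571 at 9 hr.

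After LPS *Cd33* rose in *Cpeb4*-/- cells by 0.61, 0.54, 0.88 and 1.27 at 1, 3, 6 and 9 hr (limma adjusted p = 0.0114, 0.0142, 1.23e-04 and 5.82e-07), in 4 of 4 mice at each time. In WT cells it rose by 0.48 at 3 hr, 0.45 at 6 hr and 0.77 at 9 hr (adjusted p = 0.0302, 0.0365 and 6.88e-04), and the 0.36 at 1 hr did not pass (0.155). After quantile normalization the WT rise at 6 hr was 0.81. The WT calls at 3 and 6 hr were lost without mouse 69 (0.0502 and 0.116) or 87 (0.0661 and 0.0847), the 3 hr call also without mouse 88 (0.141), whose value of 8.79 then stood far above the others at 7.43 to 7.74, and the 6 hr call without mouse 55 (0.0535). With no filter the WT calls at 3 and 6 hr were lost too (0.0748 and 0.0818). The *Cpeb4*-/- calls at 1 and 3 hr were lost without mouse 55 (0.0805 and 0.0632) or 62 (0.0737 and 0.0624).

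*Siglecg*, the inhibitory Siglec best known from B cells, was close to the filter before LPS and rose within 1 hr in every mouse. Untreated WT mice 25, 69, 87 and 88 were at 2.41, 2.67, 2.29 and 2.52, and *Cpeb4*-/- mice 2, 3, 55 and 62 at 2.30, 2.62, 2.46 and 2.25. At 1 hr they were at 3.62, 4.10, 3.74 and 3.74 against 3.95, 4.21, 4.14 and 4.01. This was the largest change of the 6 genes at 1 hr, 1.33 ± 0.17 (SE) in WT and 1.67 in *Cpeb4*-/- cells (limma adjusted p = 2.51e-08 and 1.42e-10). In WT the later changes from 0 hr were 1.16, 1.62 and 1.10 at 3, 6 and 9 hr, and in *Cpeb4*-/- 1.81, 1.29 and 0.72, each past the test (the largest adjusted p was 2.40e-04). The level was highest at 3 hr in *Cpeb4*-/- (4.22) and at 6 hr in WT (4.09), with overlapping ranges. At 3 hr every *Cpeb4*-/- library, 4.47, 4.19, 4.18 and 4.04, was above every WT library, 3.23, 3.72, 3.83 and 3.73. That difference, 0.59 ± 0.16, missed the threshold (adjusted p = 0.0738), and passed it in the fit of all 40 libraries (0.0190, and 0.0195 with the mouse as a random effect) and without mouse 88 (0.0376). The differences were −0.39 at 6 hr and −0.45 at 9 hr (adjusted p = 0.186 and 0.151). At so low a level the rlog shrinks differences more than at higher levels.

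*Cd22* encodes the inhibitory Siglec that sets the threshold of the B cell receptor, and here it fell with LPS. Untreated, it was at 6.52, 6.28, 6.24 and 6.69 in WT mice 25, 69, 87 and 88, and at 6.93, 6.97, 6.90 and 6.74 in *Cpeb4*-/- mice 2, 3, 55 and 62. At 6 hr it was at 5.92, 5.86, 5.98 and 5.67 against 5.88, 5.96, 5.92 and 5.44. The *Cpeb4*-/- mice began higher, by a gap of 0.06 to the nearest WT mouse, and overlapped the WT mice at 6 hr. In *Cpeb4*-/- cells *Cd22* fell by 0.73 ± 0.14 (SE) at 3 hr, 1.08 at 6 hr and 0.77 at 9 hr (limma adjusted p = 3.47e-05, 2.35e-08 and 1.44e-05), in 4 of 4 mice at each time. In WT cells it fell by 0.57 at 6 hr and 0.47 at 9 hr (adjusted p = 5.94e-04 and 0.00393). After quantile normalization the WT changes were −0.22 and −0.15 and neither passed (0.160 and 0.341), and the changes in *Cpeb4*-/- cells, −0.69 and −0.50, both passed. The change of −0.31 at 3 hr in WT had an adjusted p of 0.0540, and it passed with the mouse as a block (0.0113) and without mouse 3 (0.0480) or 62 (0.0394).

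The genotype difference in *Cd22* was 0.46 ± 0.11 at 0 hr and 0.43 ± 0.16 at 1 hr, and neither passed the test (limma adjusted p = 0.0679 and 0.108). Without mouse 88 the first was 0.54 and passed (0.0452), and the second passed in the fit of all 40 libraries (0.0263, and 0.0185 with the mouse as a random effect). At 3, 6 and 9 hr it was 0.04, −0.06 and 0.16 (adjusted p = 0.434 to 0.875). The summed level of the B cell markers, set by *Cd79b*, was lower in untreated *Cpeb4*-/- cells, at 5.95 to 6.17 against 6.24 to 6.69 in WT. *Cd79b* was called by genotype at no time, and the part of B cells in the level of *Cd22* was not tested.

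**Figure D3:**
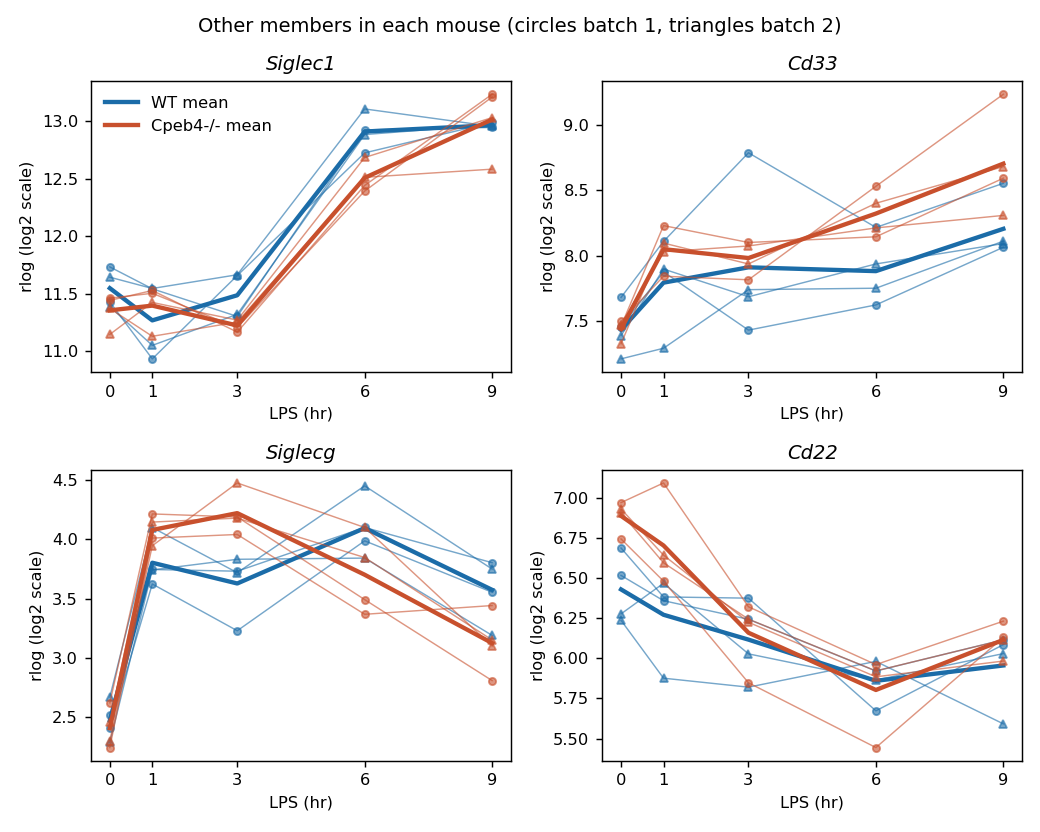
*Siglec1*, *Cd33*, *Siglecg* and *Cd22* in each of 8 mice, as rlog values (log2 scale, vertical axes, not from 0) against hours of LPS (horizontal axes); thin lines are mice, circles batch 1, triangles batch 2, thick lines group means, blue WT and orange *Cpeb4*-/-. The genotypes overlap at most times, with *Siglec1* lower in *Cpeb4*-/- cells at 6 hr (mean 12.51 against 12.91) and *Cd33* higher at 6 hr (8.32 against 7.88).

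Counted together, 2 of the 20 genotype tests of *Siglec1*, *Cd33*, *Siglecg* and *Cd22* passed, both at 6 hr. No *Cpeb4*-/- and WT ranges of *Cd33* were apart at any time. Those of *Siglec1* were apart at 3 and 6 hr, those of *Siglecg* at 3 hr, and those of *Cd22* at 0 and 1 hr. Of all genes tested, 10.5, 15.7, 13.6, 20.2 and 16.9% had separate ranges at 0, 1, 3, 6 and 9 hr. The sign of the difference changed between times in *Siglec1*, *Siglecg* and *Cd22*, and in *Cd33* the difference ran from 0.01 to 0.50. The steady sign in *Siglece* and *Cd37* was part of the choice and is no contrast to the other genes.

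**Figure D4:**
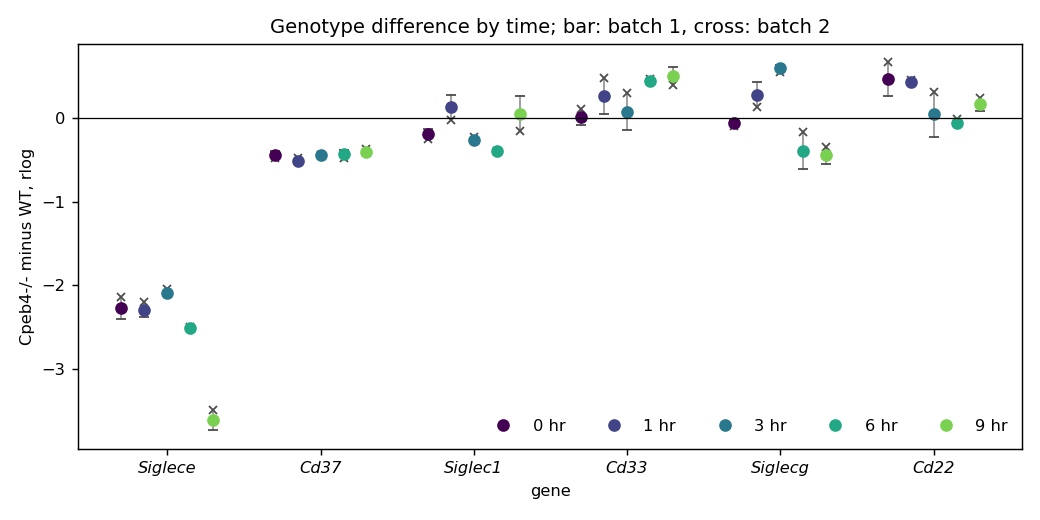
Genotype difference (*Cpeb4*-/- minus WT, rlog, vertical axis) of the 6 genes (horizontal axis) at 0, 1, 3, 6 and 9 hr of LPS (dot colour); dots are means over 4 against 4 mice, short bars the value within batch 1 and crosses that within batch 2. The means of *Siglece* lie at −3.61 to −2.09, those of *Cd37* at −0.52 to −0.41 and those of the other 4 genes between −0.45 and 0.59; within batches *Siglece* lies at −3.73 to −2.05 and *Cd37* at −0.55 to −0.37.

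Of the 6 genes, the response to LPS passed the test in WT for 1, 4, 6 and 6 at 1, 3, 6 and 9 hr, where 37.7, 69.9, 79.9 and 73.7% of all genes tested were called. In *Cpeb4*-/- cells it passed for 2, 5, 6 and 6, where 41.9, 69.9, 77.9 and 71.3% of all genes were called. At 6 and 9 hr *Siglece*, *Siglec1*, *Siglecg* and *Cd33* were up and *Cd22* and *Cd37* down in both genotypes. At 6 hr the 6 genes had a median change of 0.90 in WT and of 1.02 in *Cpeb4*-/- cells, beside −0.02 over all genes tested in each. Within a genotype *Siglece* and *Siglec1* followed each other over the 20 libraries (r = 0.87 in WT, 0.84 in *Cpeb4*-/-), while *Cd37* ran against both, with r of −0.95 to −0.85. These 20 points share the time course and 4 mice.

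**Figure D5:**
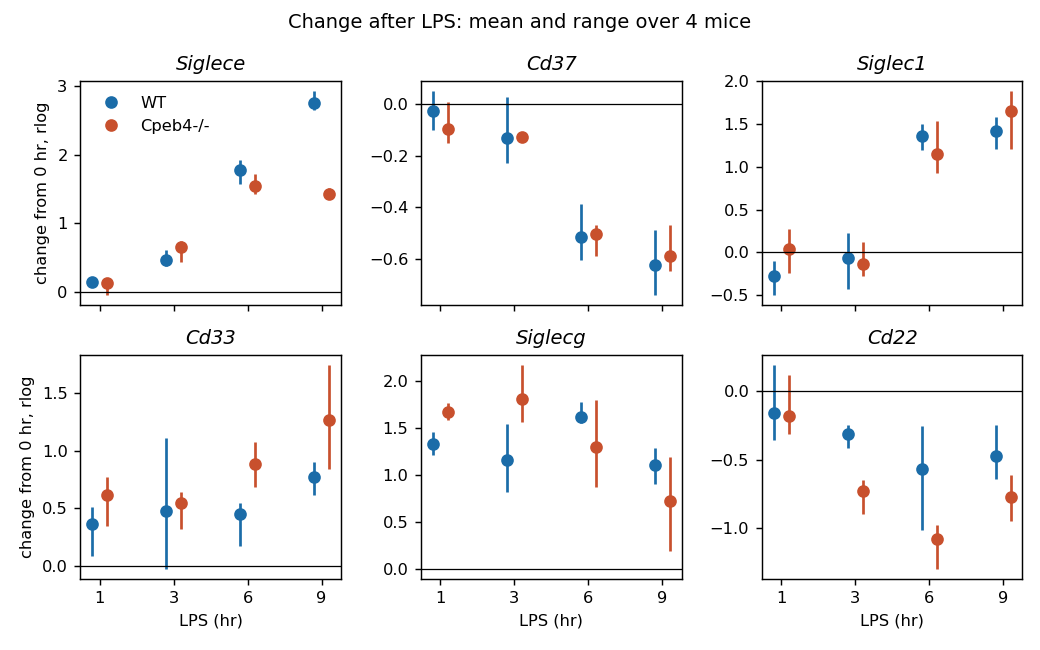
Change from 0 hr (rlog, vertical axes, each panel on its own scale) of the 6 genes at 1, 3, 6 and 9 hr of LPS (horizontal axes) in WT (blue) and *Cpeb4*-/- cells (orange); dots are means and lines the range over 4 mice. At 9 hr *Siglece* had changed by 2.76 in WT and by 1.42 in *Cpeb4*-/- cells, and *Cd37* by −0.62 and −0.59. The difference between the genotypes in these changes was not tested, because it holds the contrast used in the choice.

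Whether the response to LPS differed between the genotypes was tested for *Siglec1*, *Cd33*, *Siglecg* and *Cd22*. With limma 0 of the 16 tests passed, and 2 had an unadjusted p under 0.05, *Siglecg* at 3 hr (0.66 ± 0.23, adjusted p = 0.519) and *Cd22* at 6 hr (−0.51 ± 0.20, adjusted p = 0.191). Of all genes tested, 0.00763, 0.206, 2.94 and 1.76% were called at 1, 3, 6 and 9 hr. Each mouse gave every time, and with the mouse as a block *Cd22* at 6 hr passed (adjusted p = 0.0361), where 0.00763, 0.549, 7.88 and 4.99% of all genes were called at the 4 times. The exact permutation test on the changes of single mice gave 0.0286 for *Siglecg* at 1 and 3 hr, *Cd33* at 6 hr and *Cd22* at 3 hr, 0.0857 for *Cd22* at 6 hr, and at lowest 0.114 after adjustment over the 16.

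Gene lists were read against all genes tested, of which 0.741, 0.976, 1.81, 6.4 and 4.69% were higher and 0.565, 0.938, 1.87, 9.92 and 3.22% lower in *Cpeb4*-/- cells at 0, 1, 3, 6 and 9 hr. After LPS in WT 19.4, 33.5, 39.7 and 37% were higher and 18.3, 36.4, 40.2 and 36.6% lower at 1, 3, 6 and 9 hr. The share of all genes with an unadjusted p under 0.05 is not given here. List counts at an unadjusted p therefore cannot be read as many or few.

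Other Siglecs gave 0 genotype calls with limma, and 1 unadjusted p under 0.05, at 9 hr. *Mag*, the myelin Siglec, had differences of −0.14 to 0.04 and rose in WT by 0.29 at 6 hr and 0.99 at 9 hr (adjusted p = 0.0179 and 5.88e-10) after a fall by 0.31 at 3 hr (0.0123). *Siglecf*, the eosinophil Siglec, had differences of −0.27 to 0.11, with adjusted p from 0.145 to 0.968, and fell by 0.67 in WT and 1.00 in *Cpeb4*-/- cells at 9 hr (adjusted p = 2.74e-04 and 7.30e-07). *Siglech*, known from plasmacytoid dendritic cells, was tested at 1 hr only (−0.04, adjusted p = 0.908), and *Siglec15* was below the filter in all 40 libraries.

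All 18 partners of ITIM and related signalling were tested at each time. By genotype 0 were called with limma at 0 hr (6 at an unadjusted p under 0.05), 1 up and 1 down at 1 hr, 1 down at 3 hr, 2 up and 5 down at 6 hr and 3 down at 9 hr. At 6 hr the largest were *Inppl1*, an inositol phosphatase gene (12.85 ± 0.12 in WT and 12.50 ± 0.10 in *Cpeb4*-/-, SD, n = 4), with a limma adjusted p of 0.00360, and the Src-family kinase gene *Fgr* (10.47 ± 0.14 and 10.78 ± 0.11), with 0.0126. After LPS in WT 8 were higher and 0 lower at 1 hr, 11 and 1 at 3 hr, 14 and 3 at 6 hr, and 13 and 3 at 9 hr. The median difference by genotype at 6 hr was −0.11, beside −0.02 over all genes tested.

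Of 30 genes that make, transfer, modify or remove sialic acids, 20 or 21 were tested. By genotype 1, 0, 1, 4 and 1 were lower at 0, 1, 3, 6 and 9 hr, and 0 were higher with limma, while 1 to 4 were higher at an unadjusted p under 0.05. At 6 hr the largest were the sialyltransferase genes *St6galnac4* (10.51 ± 0.10 in WT, 10.13 ± 0.13 in *Cpeb4*-/-, limma adjusted p = 0.00359) and *St3gal6* (7.00 ± 0.15 and 6.65 ± 0.09, adjusted p = 0.0191). After LPS in WT more were lower than higher from 3 hr on, 13 against 5 at 3 hr, 14 against 5 at 6 hr and 14 against 6 at 9 hr, while at 1 hr 4 were higher and 3 lower. The median change at 6 hr was −0.48, beside −0.02 over all genes.

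Of 27 tetraspanin genes other than *Cd37*, 19 to 21 were tested. By genotype 2, 2, 3, 4 and 0 were lower at 0, 1, 3, 6 and 9 hr, and 0 were higher with limma. At an unadjusted p under 0.05 there were 9, 10, 8, 6 and 3, of which 0, 0, 0, 0 and 1 were higher. The median difference of the list was −0.13, −0.20, −0.15, −0.04 and −0.07, of the same sign as that of *Cd37*. No tetraspanin of this list was called at more than 2 times. The calls of *Cd37* at all 5 times were part of the choice, so the counts are no comparison. At 6 hr the largest were *Tspan33* (6.14 ± 0.22 in WT, 5.34 ± 0.15 in *Cpeb4*-/-, limma adjusted p = 0.00148) and *Tspan13* (8.03 ± 0.08 and 7.60 ± 0.09, adjusted p = 0.00169). After LPS in WT 5 were higher and 2 lower at 1 hr, 4 and 7 at 3 hr, 5 and 11 at 6 hr, and 4 and 11 at 9 hr, so that *Cd37* fell among other tetraspanins that fell.

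Among the macrophage markers 1, 1, 2, 6 and 4 of 10 were lower in *Cpeb4*-/- cells at 0, 1, 3, 6 and 9 hr and 0 were higher with limma. At an unadjusted p under 0.05 there were 5, 6, 4, 7 and 7, of which 1, 2, 0, 0 and 2 were higher. *Cd14* was called at 4 times, *Lyz2*, *Cd68*, *Fcgr1* and *Spi1* at 2 times, *Csf1r* once, and *Adgre1*, *Itgam* and *Mertk* at none; at 6 hr *Lyz2* was at 18.33 ± 0.10 in WT and 17.95 ± 0.19 in *Cpeb4*-/- (limma adjusted p = 0.0190). After LPS in WT 2 were higher and 1 lower at 1 hr, 4 and 2 at 3 hr, 6 and 2 at 6 hr, and 5 and 4 at 9 hr. Of the B cell markers only *Cd79b* could be tested, with differences of −0.56 to 0.06, 0 calls with limma and an unadjusted p under 0.05 at 0, 1 and 3 hr, and after LPS in WT it fell at 3, 6 and 9 hr, by 1.55 at 6 hr. The remaining B cell markers reached at most 2.10 in any library (*Cd79a*). Of 8 dendritic cell markers 6 were tested, of which with limma 1 was higher at 0 hr and 2 were higher at 3 hr. The only one lower was *Xcr1* at 6 hr (6.81 ± 0.18 in WT, 6.32 ± 0.18 in *Cpeb4*-/-, adjusted p = 0.0124). *Xcr1* ran from −0.93 to −0.38 over the times, against a median of the list of 0.31, 0.44, 0.49, 0.28 and 0.21. At an unadjusted p under 0.05 there were 4, 4, 5, 2 and 3 of these 6, of which 3, 3, 4, 1 and 2 were higher. After LPS in WT 4 of these 6 were higher and 0 lower at 1 hr, 3 and 1 at 3 hr, 3 and 2 at 6 hr, and 2 and 2 at 9 hr. Neutrophil and precursor markers gave 0 genotype calls with limma among the 4 or 5 of 10 tested, also at an unadjusted p under 0.05, and in WT 2 of 4 were higher after LPS at 6 hr. Of 10 T and NK cell markers only *Cd4* was tested, which was lower at 6 hr (6.43 ± 0.03 against 6.05 ± 0.17, adjusted p = 0.0188) and fell with LPS in WT at 3, 6 and 9 hr, and *Cd3e*, *Cd3d* and *Cd3g* stayed below 1.19 in all 40 libraries.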

How the data were processed

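RNA-seq of BMDMs of 4 WT and 4 *Cpeb4*-/- mice at 5 times gave 40 libraries. Per the labels and the study's methods the authors made poly(A) libraries with 8 amplification cycles, aligned reads with STAR (2.3.0e, from the submitters' processing notes) to mm10, counted them per gene with featureCounts and deposited log2 values made with the rlog function of DESeq2. How reads that map to several genes and strand were treated is not given in the sources used here, so reads of similar Siglec genes may be split between them. The table holds no counts, so depth is unknown and precision comes from the spread between mice. Groups were taken from the sample titles, and separate mice are the replicates.

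Genotypes were compared with limma (3.58.1, lmFit and eBayes with trend, R 4.3.3) on the 8 libraries of a time, without genes of a mean rlog under log2 of 5, and LPS with 0 hr in 1 fit of 10 group means. P-values were adjusted (Benjamini-Hochberg) over all genes tested. Exact permutation tests (scipy 1.17.1) were two-sided. The fits were tested on simulated data. Gene positions and start-site windows are RefSeq's for GRCm38, matched by Entrez ID for 25275 genes. The numbers pair the libraries, since each mouse gave all times: deviations from group means had a median r of 0.29 within mice (68 of 80 pairs over 0.1) and −0.09 between mice. The members and the lists (Siglecs, ITIM signalling, sialic acid pathway, tetraspanins, cell type markers) were chosen with earlier results of these data known. Named by rule were the members, neighbours called at all times, the 2 list genes with the largest called difference at 6 hr, macrophage and B cell markers, and the 5 genes most correlated with *Siglece* or *Cd37* among genes of a mean rlog of at least 5. Other genes were named after their values were seen. Some genes that the rule names are not reported here. Alternatives were other filters, no trend, robust eBayes, batch as a covariate, 1 fit of all libraries, the mouse as a block, quantile normalization and each mouse left out.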

Additional observations from a re-analysis of the deposited data

Results flagged for a closer look

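Between 6 and 9 hr *Siglece* went up in all 4 WT mice, by a mean of 0.98. In all 4 *Cpeb4*-/- mice it was little changed or slightly lower, by a mean of −0.12 ± 0.13 (SD, −0.31 to −0.02), and the ranges at the 2 times overlapped. Neither the change in *Cpeb4*-/- mice nor the difference between the genotypes was tested.

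In 3 of the 60 groups of 4 libraries a mouse stood far from the other 3 of its group. *Cd33* in WT mouse 88 at 9 hr was at 8.55, above the others, with 0.905 of the group's range between it and the next mouse. *Cd22* was low in WT mouse 87 at 9 hr (5.59, 0.836 of the range) and in *Cpeb4*-/- mouse 62 at 6 hr (5.44, 0.853 of the range). Chance flags about 1 in 20 such groups.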

How the results depend on the processing

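After quantile normalization the mean genotype difference of *Siglece* was −2.50 and that of *Cd37* −0.43. With a mouse left out they ran from −2.68 to −2.45 and from −0.48 to −0.42. The other alternatives cannot move a difference of group means. These values describe the choice and are no test of it. Calls by genotype among *Siglec1*, *Siglecg*, *Cd33* and *Cd22*, 2 of 20 as reported, were 0 with no filter, 1 without trend, 3 in the fits of all 40 libraries, and 1 to 5 with 1 mouse left out (5 without mouse 88, 4 without mouse 2, 2 without mouse 62 and 1 without any other). Neighbours called at all 5 times were 2 in the fits of all 40 libraries with or without the replicate block, and 0 to 1 with a mouse left out, 1 without mouse 88. Calls for a difference in the response to LPS, 0 of 16 as reported, were 1 with the mouse as a replicate block (*Cd22* at 6 hr). Response calls among the 6 genes, 17 in WT and 19 in *Cpeb4*-/-, became 19 and 19 under the block and 13 to 21 under the other alternatives. The block changed no call of the 6 genes other than those given in the text. The cause of these changes was not tested.

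These signs turned, each with an adjusted p over 0.05 in the reported and the turned fit. After quantile normalization this was *Cd33* at 0 hr (−0.018) and *Cd22* at 3 hr (−0.0093) by genotype and *Siglec1* at 1 hr in *Cpeb4*-/- after LPS (−0.13). With a mouse left out, genotype differences ran from −0.023 to 0.19 for *Siglec1* at 9 hr, −0.14 to 0.0023 for *Siglecg* at 0 hr, −0.069 to 0.088 and −0.089 to 0.36 for *Cd33* at 0 and 3 hr, and −0.056 to 0.15 and −0.12 to 0.063 for *Cd22* at 3 and 6 hr. Among these, *Siglec1* at 9 hr passed without mouse 2 and *Cd33* at 3 hr without mouse 88. Responses ran from −0.16 to 0.061 for *Siglec1* at 3 hr in WT and −0.038 to 0.135 at 1 hr in *Cpeb4*-/-.

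Over all genes, calls by genotype at 0, 1, 3, 6 and 9 hr were 171, 251, 481, 2129 and 1029. With all mice they ran from 43, 54, 90, 868 and 369 to 414, 4323, 1393, 2159 and 2378 under the alternatives, and with a mouse left out from 44, 40, 76, 1347 and 387 to 163, 2440 (without mouse 69), 2584 (without mouse 88), 2331 and 4575 (without mouse 2). Genes called in 1 direction at all 5 times, 30, were 5 with no filter, 17 without trend, 103 in the fit of all libraries (140 with a mouse term) and 11 to 37 with a mouse left out. Calls for a difference in the response at 1, 3, 6 and 9 hr, 1, 27, 385 and 231, ran from 0, 22, 227 and 209 to 8, 72, 1032 and 654 with all mice, and from 0, 5, 84 and 89 to 2, 21, 391 and 226 with a mouse left out. Depth is unknown, and *Siglecg* before LPS lay near the filter.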
